A study of Mus musculus with 18 samples.

Results

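Ribosomal protein genes encode the protein part of the cytosolic ribosome, which is built from a small and a large subunit. The members described here are the rows of the deposited count table whose symbols follow the naming of these genes (Rps and Rpl followed by a number, with Rpsa, Rplp0, Rplp1 and Rplp2). The rule leaves out the S6 kinases and rows named as pseudogenes, but its naming pattern takes in Rps4l, which is annotated as a processed pseudogene. It found 78 genes among 21011, of which 32 belong to the small subunit and 46 to the large subunit. Of these, 77 passed the filter on low counts and were tested. The exception was Rpl24.

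The libraries came from 18 mice, 1 library each, with tamoxifen given at 8 weeks of age and telogen (resting hair cycle) dorsal skin taken 10 weeks later. KR mice (n = 4) carried K14-CreERT, driven by the promoter of a basal keratin, and a deletion of Rbpj, the DNA-binding protein of the Notch pathway. LR mice (n = 3) lost Rbpj through Lrig1-CreERT2, Lrig1 being a marker of stem cells in the upper follicle, and KN1 mice (n = 4) lost the receptor gene Notch1 through a driver that the labels write as K14-CreERT1. Each mutant had controls with the same batch label (KR control n = 2, LR control n = 3, KN1 control n = 2), whose alleles the labels do not give. The labels hold the batch number under the tag for the cage, and the study's text calls the controls matched by batch or litter. After a night in trypsin the epidermis was scraped off, and its poly(A) RNA was sequenced. A level is given as CPM, the count scaled to the TMM-adjusted library size, and only as CPM per kb of coding sequence where genes are compared with each other. These are bulk samples, so fewer cells of a type and less RNA per cell cannot be told apart.

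The cytosolic ribosome is assembled in the nucleolus, where ribosomal RNA joins proteins made from these genes in matched amounts. Most of the genes are expressed in every cell type and rank among its most abundant mRNAs. Many of their transcripts start with a run of pyrimidines, the terminal oligopyrimidine or TOP motif, through which mTOR and Larp1 govern their translation and stability. In human, mutation of genes such as RPS19, RPL5 and RPL11 causes Diamond-Blackfan anaemia, and free Rpl5 and Rpl11 bind Mdm2 and so stabilise p53.

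The start windows below show the pyrimidine run, or its lack, in members that the later results turn on. They come from RefSeq (GRCm38.p6) and span 20 bases on either side of an annotated start, on the strand of the gene. Capitals mark each run of at least 6 C or T bases. Rps4x and Rpsa are shown because they fell in KN1 and the window holds no such run, and Rps6 because it has a run and did not pass the test. Another annotated start of Rpl19 lies upstream of the one shown, and its window holds no such run.
Rpl19, chr11:98026904-98026943, plus strand: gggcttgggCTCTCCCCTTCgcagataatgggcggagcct
Rps24, chr14:24490658-24490697, plus strand: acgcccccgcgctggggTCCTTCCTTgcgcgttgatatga
Rps6, chr4:86857348-86857387, minus strand: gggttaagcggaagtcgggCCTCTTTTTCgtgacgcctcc
Rps4x, chrX:102189372-102189411, minus strand: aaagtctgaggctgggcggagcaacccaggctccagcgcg
Rpsa, chr9:120127746-120127785, plus strand: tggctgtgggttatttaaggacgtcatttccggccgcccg

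RefSeq promoter entries were matched for 57 of the 78 members, with 68 start windows in all. A pyrimidine run of at least 6 bases on the sense strand within 20 bases of a start was present in 41 of the 57 members (71.9%), against 41.2% of 27025 genes in the same table. The ETS-type motif CCGGAAG, searched on both strands over 300 bases, was present in 24 members (42.1%), against 9.93% of all genes. TATAAA on either strand was present in 6 members (10.5%), against 15.7% of all genes. These are matches of letters and not measured sites. In KN1 against its controls the median log2 fold change was -0.45 over 41 tested members with a run and -0.42 over 15 without one, and the difference was not tested.

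In KR skin, 5.31%, 4.54%, 5.49% and 5.21% of the counts of mice 1, 3, 4 and 5 fell on the 78 genes, against 5.57% and 6.57% in KR controls 4 and 6. In LR skin the shares were 4.78%, 4.74% and 4.56%, against 5.25%, 4.80% and 4.79% in LR controls 2, 3 and 5. In KN1 skin they were 7.00%, 6.68%, 7.24% and 6.49%, against 8.74% and 9.47% in KN1 controls 1 and 7. Every KN1 and KR mutant lay below every control of its own batch, the LR mutants and LR controls 3 and 5 lay close together, and every KN1 mutant but mouse 4 lay above every KR and LR control. The half-width of a 95% Wilson interval was at most 0.0178 percentage points, and it covers counting error only.

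**Figure D1:**
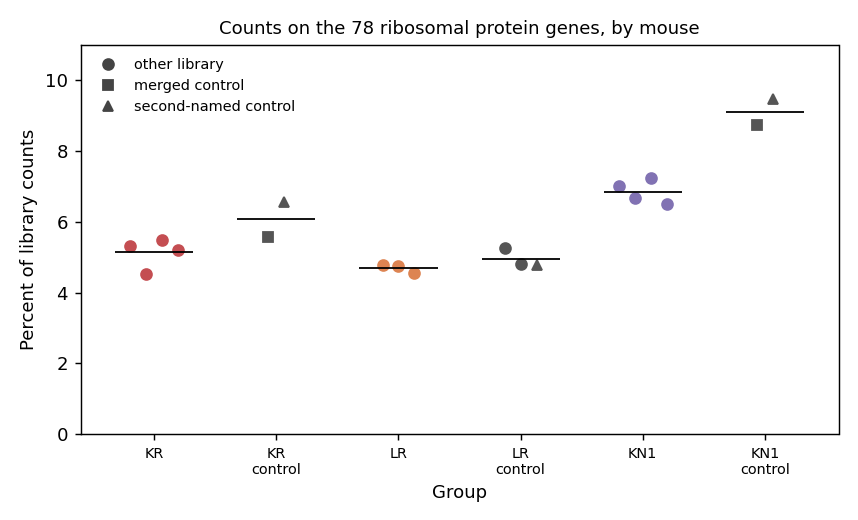
Percent of library counts on the 78 ribosomal protein genes (y axis) in each of 18 mice by group (x axis); horizontal lines are group means. KN1 mutants lie at 6.49% to 7.24%, against 8.74% and 9.47% in KN1 controls, and all KR and LR libraries lie at or below 6.57%. Squares mark controls that merge 2 sequencing runs of 1 mouse and triangles the controls with a second name in the labels.

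The control libraries differ in a way the groups do not explain. Per the labels, KN1 control 1 and KR control 4 each hold 2 sequencing runs of 1 mouse, and KR control 6, LR control 5 and KN1 control 7 carry a second name like those of the repeat runs. No mutant library is of either kind, while all KR and KN1 controls are of one or the other. A difference between KR or KN1 and its controls and a difference that goes with this naming cannot be told apart in those cohorts. LR control 5 stands beside 2 LR controls without a second name, and its values are given where they bear on a result. Total counts ran from 8076316 to 21216169 per library, and the 2 merged controls were the deepest. As a check of the labels, Notch1 averaged 112 ± 31.2 CPM (SD) in the 4 KN1 mice and 212 ± 56.2 CPM in the 2 KN1 controls, a log2 fold change of -0.91 ± 0.19 (edgeR adjusted p = 0.0251). Rbpj passed in no mutant, and whole-gene counts do not resolve a deleted exon, so it does not check the KR and LR labels.

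KN1 against its controls compares skin that lost Notch1 under the K14 driver with controls that differ in kind of library as well. In KN1 skin 22 of 77 members fell and 0 rose at an adjusted p under 0.05 (edgeR quasi-likelihood test with Benjamini-Hochberg adjustment over 16517 genes). Over all genes tested, 1.11% were lower and 0.86% were higher by the same rule. The members that fell were 11 of the small subunit (among them Rps4x, Rps9, Rps10, Rps14, Rps20, Rps24, Rps27a, Rps29 and Rpsa) and 11 of the large (Rpl3, Rpl5, Rpl6, Rpl7, Rpl19, Rpl22, Rpl26, Rpl32, Rpl35, Rplp1 and Rplp2). The median log2 fold change was -0.46 over the 77 members and 0.02 over all genes, and all 77 estimates were negative. In 62 members every KN1 mouse lay below both controls, a pattern held by 14.3% of all genes.

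Rps4x, the X-linked copy of the S4 protein gene (chromosome X, 102184941 to 102189394, minus strand, GRCm38), had 1375, 1293, 1473 and 1323 CPM in KN1 mice 1 to 4, against 2168 and 2438 CPM in KN1 controls 1 and 7. The groups did not overlap, and it fell by 0.75 on the log2 scale (SE 0.12, edgeR adjusted p = 0.00881).

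Rpsa, whose protein is also known as the laminin receptor, had 1858, 1942, 2255 and 1996 CPM in KN1, against 3145 and 4216 CPM in its controls (log2 fold change -0.87 ± 0.15 SE, edgeR adjusted p = 0.0124). Its 6 named pseudogene rows together held 6.11% as many counts as Rpsa itself, so part of its reads may have been placed elsewhere. Rps24, one of the Diamond-Blackfan genes in human, had 781.8, 760.1, 931.5 and 825.6 CPM in KN1, against 1363 and 1681 CPM in its controls (log2 fold change -0.88 ± 0.16 SE, edgeR adjusted p = 0.0135). Rps27a encodes a fusion of ubiquitin with a small-subunit protein. Its levels were 643.0, 586.7, 741.1 and 633.7 CPM in KN1, against 985.5 and 1303 CPM in its controls (log2 fold change -0.81 ± 0.16 SE, edgeR adjusted p = 0.0163). In each of these genes the highest KN1 mouse, number 3, stayed below the lower control.

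Rpl19, Rpl7 and Rpl32 led the large subunit. Rpl19 had the widest change of all members, with 240.4, 237.4, 264.0 and 216.7 CPM in KN1, against 522.6 and 820.1 CPM in its controls (log2 fold change -1.49 ± 0.27 SE, edgeR adjusted p = 0.0134). Rpl7 had 987.7, 955.6, 1074 and 943.2 CPM in KN1, against 1580 and 1963 CPM in its controls (log2 fold change -0.84 ± 0.15 SE, edgeR adjusted p = 0.0124). Rpl32 had 729.8, 773.0, 833.0 and 796.6 CPM in KN1, against 1239 and 1643 CPM in its controls (log2 fold change -0.88 ± 0.17 SE, edgeR adjusted p = 0.0163). Within the controls the second-named library 7 was the higher one for all of these genes.

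KR against its controls is the like comparison for loss of Rbpj under K14-CreERT, and there too the controls differ in kind of library. Here 4 of 77 members fell and 0 rose (edgeR quasi-likelihood test), against 0.902% of all genes lower and 0.696% higher. The 4 were Rpl7, Rpl22, Rps24 and Rps27a, and all 4 were among the 22 that fell in KN1. The median log2 fold change was -0.29 over members and 0.04 over all genes, and 69 of 77 estimates were negative. In 36 members every KR mouse lay below both controls, against 19.5% of all genes. At an unadjusted p under 0.05, 36 members were lower in KR, and the share of all genes at that cut was not computed.

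Rpl7 (chromosome 1, 16101295 to 16104662, minus strand) had 749.5, 672.6, 827.8 and 718.9 CPM in KR mice 1, 3, 4 and 5, against 1053 and 1340 CPM in KR controls 4 and 6. It fell by 0.69 on the log2 scale (SE 0.15, edgeR adjusted p = 0.0351). Rps24 (chromosome 14, 24487125 to 24496959, plus strand) had 507.1, 413.9, 637.6 and 581.7 CPM in KR, against 746.6 and 979.5 CPM in its controls. Its log2 fold change was -0.69 ± 0.16 (SE, edgeR adjusted p = 0.042). For both genes all 4 mutants lay under the lower, merged control.

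Rps27a (chromosome 11, 29545846 to 29548109, minus strand) had 419.7, 334.6, 439.3 and 418.5 CPM in KR, against 540.8 and 713.3 CPM in its controls (log2 fold change -0.64 ± 0.16 SE, edgeR adjusted p = 0.048). Rpl22, known to repress its close copy Rpl22l1, had 316.9, 256.3, 342.0 and 315.3 CPM in KR, against 421.2 and 535.6 CPM in its controls (log2 fold change -0.64 ± 0.16 SE, edgeR adjusted p = 0.048). Among the KR mice, mouse 3 was the lowest for all 4 genes that fell. Rpl19 had the widest difference but missed the threshold, with 156.5, 137.5, 227.7 and 185.5 CPM in KR, against 281.3 and 448.3 CPM in its controls (log2 fold change -1.04 ± 0.27 SE, edgeR adjusted p = 0.0563).

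**Figure D2:**
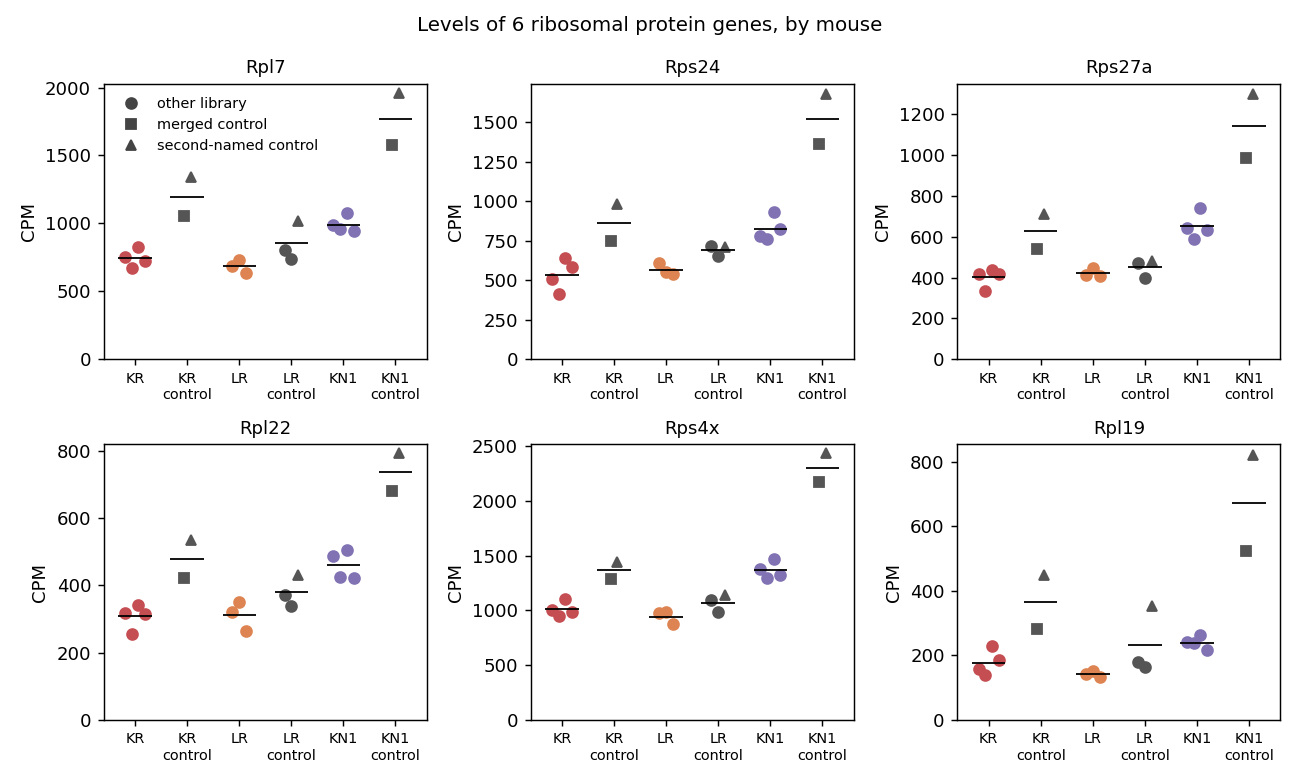
Level in CPM (y axes, from 0) of 6 ribosomal protein genes in each of 18 mice by group (x axes); horizontal lines are group means, and marker shapes give the kind of library. KR and KN1 mice lie below their own controls in all 6 panels, and the second-named control is the higher of each KR and KN1 control pair.

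LR against its controls asks about loss of Rbpj under Lrig1-CreERT2. No member passed (0 of 77 lower and 0 higher by edgeR, also 0 by DESeq2), against 0.248% of all genes lower and 0.872% higher. At an unadjusted p under 0.05, 5 members were lower in LR and 0 higher, and the share of all genes at that cut was not computed. The median log2 fold change was -0.10 over members and 0.00 over all genes, and 62 of 77 estimates were negative. In 9 members every LR mouse lay below all 3 controls, while 9.29% of all genes did so.

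The widest LR differences were those of Rpl19, Rps29, Rpsa and Rplp0. Rpl19 had 140.8, 151.7 and 132.5 CPM in LR, against 177.9, 164.0 and 351.8 CPM in LR controls 2, 3 and 5 (log2 fold change -0.71 ± 0.26 SE, edgeR adjusted p = 0.196). The groups did not overlap, but the second-named control 5 stood far above the other controls. Rps29 had 209.5, 171.6 and 182.2 CPM in LR, against 283.3, 264.1 and 342.2 CPM in its controls (log2 fold change -0.66 ± 0.23 SE, edgeR adjusted p = 0.164). Rpsa had 856.1, 799.3 and 795.3 CPM in LR, against 914.1, 1071 and 1220 CPM in its controls (log2 fold change -0.39 ± 0.15 SE, edgeR adjusted p = 0.212). Rplp0, the scaffold of the ribosomal stalk and a common reference gene in quantitative PCR, had 1663, 2154 and 951.6 CPM in LR, against 1875, 2253 and 1972 CPM in its controls, with overlap. Its log2 fold change was -0.36 ± 0.24 (SE, edgeR adjusted p = 0.513).

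**Figure D3:**
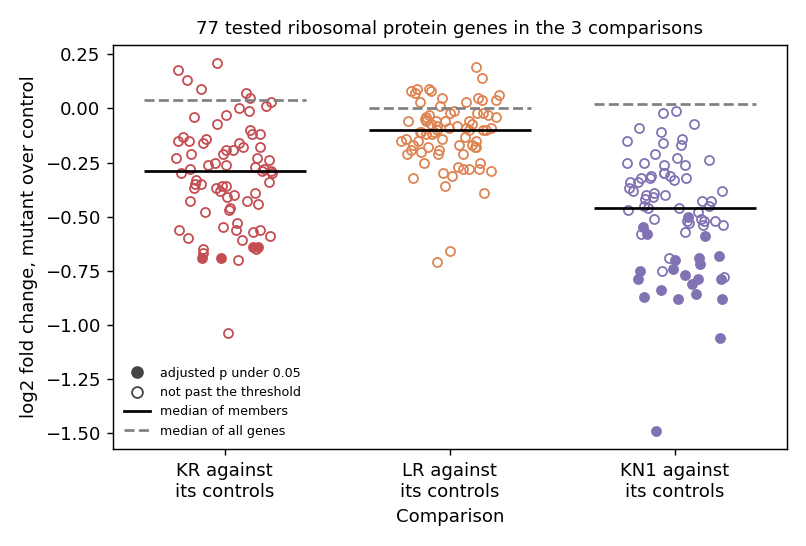
Log2 fold change of mutant over control (y axis) for each of 77 members in the 3 comparisons (x axis). Filled points passed an adjusted p of 0.05 (4 in KR, 0 in LR, 22 in KN1), solid lines are the members' medians (-0.29, -0.10 and -0.46) and dashed lines the medians of all genes.

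Whether the mutants differed from each other was tested directly. No member passed in KR minus LR, in KR minus KN1 or in LR minus KN1 (edgeR), where 0.00605%, 0% and 0.00605% of all genes did. DESeq2 called 0, 0 and 1 member. At an unadjusted p under 0.05 the numbers of members were 2 in KR minus LR, 0 in KR minus KN1 and 26 in LR minus KN1. The shares of all genes for the DESeq2 counts and the unadjusted counts were not computed. The medians of the differences were -0.19, 0.18 and 0.39 on the log2 scale. The widest single difference was that of Rpl19 in LR minus KN1, 0.78 ± 0.38 (SE, edgeR adjusted p = 0.718), followed there by Rps27a with 0.72 ± 0.22 (SE, edgeR adjusted p = 0.407). In KR minus LR it was Rps27a with -0.55 ± 0.22 (SE, edgeR adjusted p = 0.98), and in KR minus KN1 it was Rpl41 with 0.57 ± 0.33 (SE, edgeR adjusted p = 0.712). The larger number of calls in KN1 than in KR or LR is thus not shown to be a difference between the mutants.

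The calls rest on few control mice. Without KN1 control 7, 0 members passed in KN1 and the median was -0.34, and without KN1 control 1 the median was -0.59. Leaving out KN1 mouse 2 or KN1 mouse 4 left 9 calls each. In KR, 0 members passed without KR control 4, KR control 6, or KR mouse 1, 3 or 5. The KR median was -0.48 without KR control 4 and -0.16 without KR control 6. With the second-named share of each library as a covariate 0 members passed in KR and 0 in KN1, while the medians were -0.24 and -0.44. The 2 merged controls entered that fit at a share of 0.5. Every KR and KN1 mutant has a share of 0 and each of their controls 0.5 or 1. The fit thus extrapolates in these cohorts, and its 0 calls do not tell the naming and the genotype apart.

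The order of members in KR and KN1 could be set beside a difference among controls, which no mutant library enters. LR control 5 was compared with the mean of LR controls 2 and 3. These libraries stand on neither side of the KR or KN1 comparison, though they share its fit and its pooled spread. Over all 77 members LR control 5 was not higher: the median difference was -0.09 on the log2 CPM scale, with 29 members higher and 48 lower. Over all 16517 genes tested the median was 0.01, with 8349 higher and 8168 lower. Member by member, this difference went with the fold changes elsewhere. Pearson's r across the 77 members was -0.87 with the KR fold changes and -0.80 with those of KN1 (Spearman's rho -0.89 and -0.77), and across all 16517 genes it was -0.35 and -0.30. Without Rpl19 the members' r was -0.85 in KR and -0.76 in KN1. These are descriptions across genes, which are not independent replicates, and 1 library supplies the whole difference.

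Rpl19 stood 1.04 log2 units higher in LR control 5 than in LR controls 2 and 3, Rpl7 stood 0.40 higher, Rpsa 0.30 higher and Rps29 0.32 higher. Rps27l, a p53-responsive copy of Rps27, stood 0.82 lower, a difference of -0.82. The KN1 fold changes of these genes were -1.49 for Rpl19, -0.84 for Rpl7, -0.87 for Rpsa, -1.06 for Rps29 and -0.14 for Rps27l. The log2 level of Rpl19 relative to the median of the family in the same library ran from -0.85 to -0.54 in the 3 second-named libraries, from -1.27 to -1.03 in the 2 merged ones and from -1.99 to -1.45 in the other 13. Those ranges do not overlap. For Rpl7 they were 0.72 to 0.84, 0.56 to 0.63 and 0.23 to 0.47, likewise without overlap. Of the 77 members, 3 showed this order without overlap (Rpl19, Rpl7 and Rpl32) and 1 showed the reverse order (Rpl14). The other 73, Rpsa and Rps29 among them, showed neither. The share of all genes with either order was not computed, so these numbers are not a result about the family. Rpl14 and Rpl32 are named here after their values were seen. The part of library history in the KR and KN1 differences cannot be told apart from that of genotype.

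**Figure D4:**
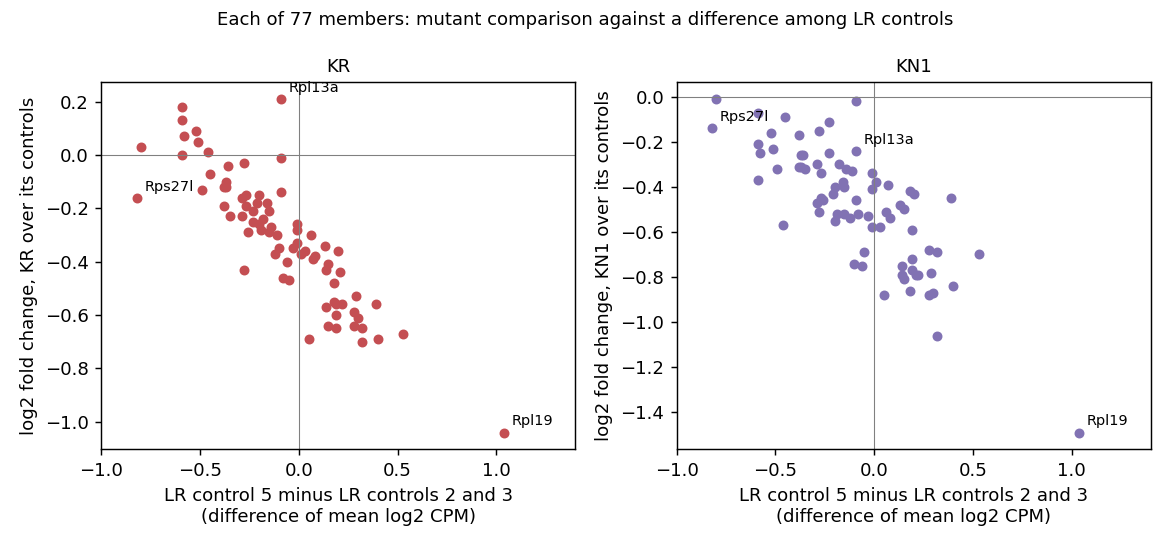
Each point is 1 of 77 members: the difference between LR control 5 and LR controls 2 and 3 in mean log2 CPM (x axes) against the log2 fold change of mutant over control (y axes) in KR (left) and KN1 (right). Members higher in LR control 5, with Rpl19 at 1.04 at the far right, have the lower fold changes (r -0.87 in KR and -0.80 in KN1).

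The KN1 controls stood further from the other controls than any mutant stood from its own, by the members' medians. LR controls against KN1 controls had 75 of 77 members lower and 0 higher (edgeR), against 13.4% of all genes lower and 14.2% higher. KR controls against KN1 controls had 60 lower and 0 higher, against 6.6% of all genes lower and 6.12% higher. KR controls against LR controls had 0 called in either direction, against 1.35% of all genes lower and 0.212% higher. At an unadjusted p under 0.05, 31 members were higher there, and DESeq2 called 6. The shares of all genes for the unadjusted count and the DESeq2 count were not computed. The members' medians were -1.0, -0.74 and 0.32, against 0.04, -0.01 and -0.01 over all genes. Batch and control group coincide and cannot be told apart. LR controls 2 and 3 are neither merged nor second-named, while every KR and KN1 control is one or the other. Comparisons with LR controls therefore differ in kind of library as well.

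Rpsa had the widest difference between LR and KN1 controls. Its levels were 914.1, 1071 and 1220 CPM in LR controls, against 3145 and 4216 CPM in KN1 controls (log2 fold change -1.78 ± 0.17 SE, edgeR adjusted p = 1e-05). Rps9 had 1041, 853.2 and 821.1 CPM in LR controls, against 2188 and 2481 CPM in KN1 controls (log2 fold change -1.37 ± 0.14 SE, edgeR adjusted p = 2.6e-05). The widest difference between KR and KN1 controls was that of Rpl34 (log2 fold change -1.30), with Rpsa at -1.13. In KR controls Rps9 had 1047 and 1201 CPM, 1.05 log2 units lower than in KN1 controls (log2 fold change -1.05 ± 0.16 SE, edgeR adjusted p = 0.00281). For Rpsa and Rps9 the KN1 controls lay apart from every other control. Leaving out KR control 4, KR control 6 or KN1 control 7 reduced the 60 calls between KR and KN1 controls to 6, 23 and 8, and the 75 between LR and KN1 controls stayed between 64 and 76 whichever mouse was left out.

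Other short genes stood on the side of the family in both comparisons with KN1 controls, and on the opposite side in KR against its controls. Genes were grouped by the longest principal transcript in GENCODE M21. In LR controls against KN1 controls the median log2 fold change of 969 other genes under 1 kb was -0.58, and that of 4170 genes of 4 kb or more was 0.41. In KR controls against KN1 controls the medians were -0.59 and 0.38. In KR against its controls other genes under 1 kb had a median of 0.26 and those of 4 kb or more a median of -0.11, so the short genes stood on the other side of 0 from the ribosomal protein genes. In KN1 against its controls the medians were 0.01 and 0.06, and in LR they were 0.07 and -0.07. Among genes with a mean of at least 100 CPM, closer to the levels of most members, the KN1 medians were -0.14 over 77 other genes under 1 kb and -0.15 over 319 genes of 1 to 2 kb, on the side of the family. At these levels the KR median of genes under 1 kb was 0.16. Other genes under 1 kb took 2.88% of the counts of LR control 5, against 4.09% and 3.80% in LR controls 2 and 3, and genes of 4 kb or more took 34.99%, against 27.92% and 30.04%. The part of transcript length in the differences between control groups was not tested.

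**Figure D5:**
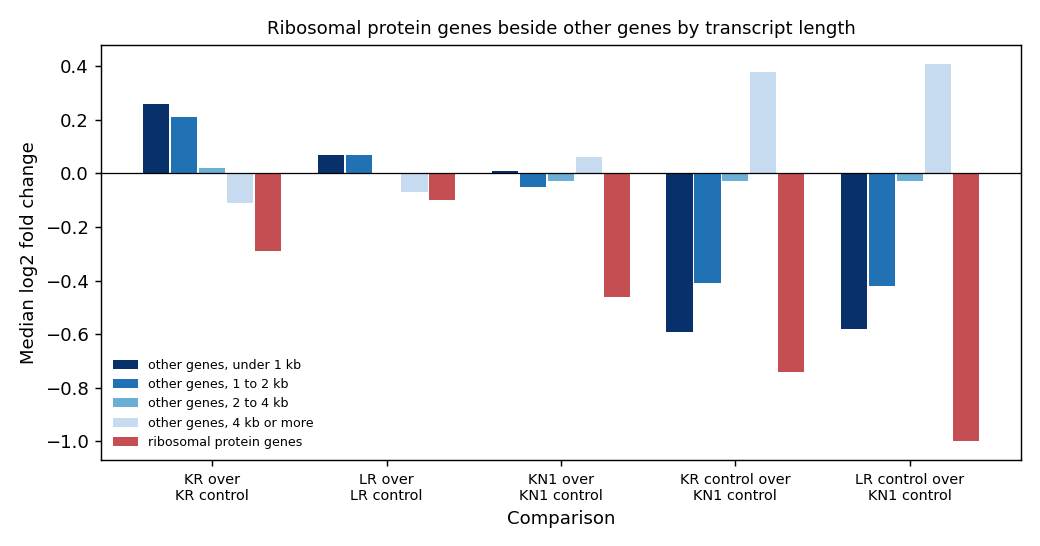
Median log2 fold change (y axis, bars from 0) of other genes in 4 classes of transcript length and of the 77 ribosomal protein genes, in 5 comparisons (x axis). In the right 2 comparisons the shortest class (-0.59 and -0.58) lies on the side of the ribosomal protein genes (-0.74 and -1.0), and in KR it lies opposite (0.26 against -0.29).

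Among the members with known roles outside the ribosome or in disease, none rose in any mutant. Rps6, the substrate of S6 kinase, had 780.1 to 911.4 CPM in KN1, against 1004 and 1194 CPM in its controls (log2 fold change -0.41 ± 0.13 SE, edgeR adjusted p = 0.1). Of the p53-linked pair, Rpl5 fell in KN1 (log2 fold change -0.59 ± 0.15 SE, edgeR adjusted p = 0.043), with 1021 to 1220 CPM against 1471 and 1824 CPM in its controls. Rpl11 had 854.4 to 1004 CPM in KN1, against 1136 and 1367 CPM in its controls (log2 fold change -0.45 ± 0.14 SE, edgeR adjusted p = 0.0985). Rps19 had 1002 to 1312 CPM in KN1, against 1284 and 1516 CPM in its controls, with 1 mutant inside the range of the controls (log2 fold change -0.32 ± 0.17 SE, edgeR adjusted p = 0.34). Rps20, whose mutation, like that of Rps19, stabilises p53 in mouse skin, fell in KN1 (log2 fold change -0.79 ± 0.15 SE, edgeR adjusted p = 0.0163), with 782.5 to 924.2 CPM against 1322 and 1573 CPM in its controls.

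The stalk proteins Rplp1 and Rplp2, which recruit translation factors, fell in KN1 (log2 fold changes -0.74 ± 0.16 and -0.79 ± 0.17 SE, edgeR adjusted p = 0.0292 and 0.0262). Their scaffold Rplp0 differed by -0.75 ± 0.25 (SE) and did not pass (edgeR adjusted p = 0.128). Rpl3, which lies close to the peptidyl transferase centre, also fell (log2 fold change -0.70 ± 0.17 SE, edgeR adjusted p = 0.0457), with 1271 to 1633 CPM in KN1, against 2092 and 2633 CPM in its controls. Rpl38, which controls translation of Hox mRNAs in the mouse embryo, had 215.9 to 288.5 CPM in KN1, against 381.3 and 449.7 CPM in its controls, and lay just outside the threshold (log2 fold change -0.78 ± 0.20 SE, edgeR adjusted p = 0.0522). Rps27 and its copy Rps27l showed smaller differences, -0.25 ± 0.19 and -0.14 ± 0.21 (SE, edgeR adjusted p = 0.519 and 0.769). Of the X-linked members named, Rpl10 differed by -0.34 ± 0.12 and Rpl39 by -0.31 ± 0.19 (SE, edgeR adjusted p = 0.131 and 0.395), beside the fall of Rps4x.

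Per kb of coding sequence, Rpl41, Rplp1, Rpl13, Rplp0 and Rps14 had the highest mean levels over the 18 libraries. Rpl41 encodes a very short peptide in 75 bases of coding sequence, so its untranslated parts weigh heavily in its mean of 8667 CPM per kb. Rplp1 had 6265 ± 997 CPM per kb (SD, n = 4) in KN1, against 10430 ± 1468 (SD, n = 2) in its controls. Rpl13 had 3795 ± 261 CPM per kb (SD, n = 4) in KN1, against 5205 ± 501 (SD, n = 2). Rpl19, at rank 74 of the 77 members with a coding length, was low for the family, with 407.5 ± 32.9 CPM per kb (SD, n = 4) in KN1, against 1142 ± 358 (SD, n = 2). Between pairs of groups the Spearman correlation of the members' mean levels per kb ran from 0.840 for LR mutants beside KN1 controls to 0.973 for KR mutants beside LR mutants, as a description across genes.

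A few members stood far below the rest, and what the annotation holds around them is given beside their levels. Rpl24 had 86 counts in all 18 libraries together and 0.461 CPM on average. In GENCODE M21 71.5% of its exon length is shared with the overlapping gene Gm28037, and the counting of reads in shared exons is not stated. Rpl13a had 15.9 CPM on average with 59.3% of its exon length shared, and Rps4l, the annotated pseudogene, had 16.3 CPM. In all, 7 members share at least 50% of their exon length with another gene, and 61 share none. Of those 7, all but Rpl24 and Rpl13a averaged 449.1 to 694.3 CPM, but the 7 differ in the strand of the overlap. All of the shared length of Rpl24 (71.5%) and Rpl13a (59.3%) overlaps a gene on the same strand. In Rps10 53.6% of the exon length does so, and in Rpl23a, Rpl30, Rpl35 and Rps25 0.0%. Rps27l, which shares none, ran from -3.80 to -2.97 log2 units relative to the median of the family. Whether shared exons lower a count was not tested. Named pseudogene rows numbered 116 for 47 members and held 0.714% as many counts as the members. Adding them to their members gave 4, 0 and 23 calls for KR, LR and KN1, an alternative chosen after the data were seen.

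Relative to their own group, Rps4l, Rpl34, Rpl19, Rplp0 and Rpl13a varied most between mice, with within-group SDs of 0.45, 0.39, 0.36, 0.34 and 0.34 log2 CPM. Rpl34 had 330.9, 146.0, 238.9 and 142.1 CPM in KR, against 252.3 and 326.7 CPM in its controls, so its mutants spread more than 2-fold and overlapped the controls. Rpl10 varied least of the named members, with an SD of 0.08.

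Genes outside the naming rule place the family among its neighbours. Of 18 other genes with known TOP mRNAs, elongation and initiation factors among them, 5 fell in KR and 10 in KN1, none in LR, and none rose (medians -0.36, -0.51 and -0.16). Over all genes tested, 0.902% were lower in KR, 1.11% in KN1 and 0.248% in LR. Tpt1, a growth-linked TOP gene, fell in KR (log2 fold change -0.96 ± 0.18 SE, edgeR adjusted p = 0.0214) and in KN1 (-0.83, adjusted p = 0.0293). Eef1a1, the main elongation factor, fell in KR (-0.75, edgeR adjusted p = 0.0393), and Naca fell in both KR (-0.59, adjusted p = 0.0396) and KN1 (-0.72, adjusted p = 0.0163). The summed level of the 18 genes was 15110 to 16790 CPM in KR, against 20930 and 25390 CPM in its controls, and 21720 CPM in LR control 5, against 15880 and 15330 CPM in LR controls 2 and 3.

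Of 32 genes of ribosome biogenesis none passed in KR, LR or KN1 (edgeR), and their medians were 0.01, 0.16 and 0.31. In KN1 the lowest adjusted p was that of Rrs1, a nucleolar assembly factor, at a log2 difference of 0.71 (SE 0.22, edgeR adjusted p = 0.0954). The 77 tested genes of the mitochondrial ribosome had a median of 0.14 in KR, one of 0.07 for LR and one of -0.11 for KN1, with 2 lower in KN1, none in KR or LR, and none higher. Over all genes tested, 1.11% were lower and 0.86% higher in KN1. In LR controls against KN1 controls 48 of the 77 genes were lower, against 13.4% of all genes. Among other genes under 1 kb the share lower there was 32.8%, and among those of 1 to 2 kb it was 30.7%. Of the mTOR and S6 kinase list, 1 of 20 genes passed: Larp1 rose in KN1 (log2 fold change 0.61 ± 0.13 SE, edgeR adjusted p = 0.02). None of 12 p53 targets and none of 8 Myc family genes passed in any mutant. Of 8 ribosomal protein genes that the naming rule misses, 0 passed in the mutants, and Rps3a1 had -0.34 ± 0.14 in KR and -0.48 ± 0.14 in KN1 (SE, adjusted p = 0.162 and 0.076).

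Markers of the epidermis were abundant in every library. Of 13 lists of cell type and cell state markers, the summed level of all mutants lay below all controls for 2 lists in KR, 3 in LR and 3 in KN1, and above them for 4 in KR, 2 in LR and 2 in KN1. Among single genes, 19.5% lay below all controls in KR, 9.29% in LR and 14.3% in KN1. The share of genes above all controls was not computed, so these counts are not a result about the markers. Summed suprabasal keratinocyte markers (8 of 8 detected) were 12040 to 26840 CPM in KR, against 29260 and 29850 CPM in its controls, and 35140 to 42680 CPM in KN1, against 39990 and 42900 CPM in its controls. Of the 8, 1 fell in KR and 0 in KN1. In LR control 5 the sum was 19660 CPM, against 36220 and 33220 CPM in LR controls 2 and 3. Basal markers (7 of 7 detected) were 33720 to 40910 CPM in KR, against 29440 and 31960 CPM in its controls, and 32460 to 34240 CPM in LR, against 28190 to 31850 CPM in its controls. T cell markers (6 of 6 detected) were 44.2 to 80.1 CPM in KN1, against 104.6 and 157.4 CPM in its controls, with 3 genes lower. In LR they were 31.0 to 46.8 CPM, against 66.1, 51.9 and 102.7 CPM in LR controls 2, 3 and 5, with 0 genes lower by the test. Langerhans cell markers (6 of 6 detected) lay above the controls in KR and below them in KN1, with 1616 to 1864 CPM in KR, against 763.1 and 1245 CPM in its controls, and 1175 to 1452 CPM in KN1, against 1635 and 2250 CPM in its controls. Of the 6, Mfge8 rose in KR and none passed in KN1. Myeloid markers (7 of 7 detected) were 79.3 to 108.4 CPM in KR, against 42.2 and 70.4 CPM in its controls, and immediate early genes, which respond to stress and tissue handling, were 3504 to 5926 CPM in KR, against 2643 and 2849 CPM in its controls. Red cell markers lay below the controls in all 3 cohorts, at 4.31 to 11.4 CPM in the mutants, against 8.74 to 21.1 CPM in the controls. In LR the cell cycle genes were 699.4 to 970.8 CPM, against 517.1 to 689.5 CPM in its controls, and sebocyte markers 1867 to 2625 CPM, against 3011 to 3364 CPM in its controls. In KN1 the hair matrix markers were 41.2 to 867.7 CPM, against 18.3 and 26.4 CPM in its controls, and melanocyte markers 66.0 to 90.9 CPM, against 45.5 and 51.1 CPM in its controls. None of the 17 hair matrix genes passed in KN1. Their sum also ranged widely elsewhere: 21.96 to 863 CPM in KR, 23.11 to 653.3 in LR, 29.07 to 445.5 in KR controls and 9.93 to 437 in LR controls. Endothelial markers stayed at or under 6.44 CPM in sum in every library. Mitochondrially encoded genes took 0.98% to 1.72% of counts in KR, against 1.87% and 3.17% in its controls, 0.65% to 0.98% in KN1, against 1.11% and 1.23%, and 2.26% in LR control 5, against 0.90% and 0.89% in LR controls 2 and 3. The part of these shifts in the differences of the ribosomal protein genes was not tested.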

How the data were processed

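The authors deposited 1 table of raw read counts, 21011 genes by 18 mice, not normalized, as its whole-number values show. Per the submitters' processing notes the authors used STAR, HTSeq and DESeq2 with mm10, versions not stated. No source used here states how strand was handled, so overlapping genes and near-identical copies may share or lose reads. Total counts ran from 8076316 to 21216169.

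Counts were fitted with edgeR 4.0.16 (R 4.3.3): TMM factors, filterByExpr (16517 genes kept), robust quasi-likelihood fit of 6 group means over all 18 mice, two-sided F tests, Benjamini-Hochberg adjustment over all genes at 0.05. The spread was pooled over all mice, which the groups of 2 need (common biological coefficient of variation 0.225). Standard errors come from the F statistic, and log2 CPM used a prior count of 2. The fit was tested on simulated counts. Lengths and coordinates are from GENCODE M21 (GRCm38), the assembly of mm10. Samples are separate mice, whose spread the p-values measure, and no 2 libraries of a group agreed within sampling noise (chi-square per degree of freedom at least 5.98).

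The members, the gene lists and the tests were chosen with earlier results of these data known. Named are up to 8 members per comparison with the smallest adjusted p, or the 4 widest where under 4 passed, a fixed set of members with known roles, the 5 highest per length, the 5 most variable, and up to 3 genes of each other list. Rpl3l, Rpl10l and Rpl39l were not analysed here, and 1 member that the rule names is not reported here. Alternatives were DESeq2 1.42.0, RLE factors, factors without the members, other filters, each cohort alone, pooled controls, the second-named controls left out or as a covariate, a replicate block in LR, each mouse left out and, added after the data were seen, pseudogene rows summed into their members.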

Additional observations from a re-analysis of the deposited data

Results flagged for a closer look

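In all, 74 sets of values over 4 mice were examined for a mouse far from the other 3, of which 72 were levels of the named members and 2 the share of counts on the family, and 5 were found, all among the members. Chance flags about 1 in 20 groups. In KR, Rpl10 stood apart in mouse 4 (722.3 CPM, the others between 671.1 and 678.1 CPM), and Rpl24, with next to no counts, in mouse 3 (0.198 CPM, the others up to 0.614 CPM). In KN1, mouse 3 was the high one each time, with 518.5 CPM of Rps15a (lowest 425.8 CPM), 451.2 CPM of Rps29 (lowest 342.4 CPM) and 1787 CPM of Rps9 (lowest 1515 CPM). KN1 mouse 3 also had the highest share of counts on the family among the KN1 mutants, 7.24%.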

How the results depend on the processing

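Direction held for the members' medians in KR and LR under every alternative run, and in KN1 under every one but pooled controls. With all 7 controls pooled, which sets each mutant against other batches, the median was 0.10 in KN1 and -0.53 in LR, with 0 calls in KN1 and 4 in LR, and Rpsa, Rplp0, Rps6, Rpl11 and Rps19 turned to 0.02, 0.07, 0.18, 0.11 and 0.25 in KN1. DESeq2 called 19 members in KR and 38 in KN1, 1 in LR minus KN1 and 6 between KR and LR controls. Without a filter that last count was 1. Shares of all genes called under the alternatives were not computed, so a change in members called is not read as a result about the family. KN1 fitted alone had 8 calls. Without the 3 second-named controls, 0 members passed in KR and 1 in KN1 (Rpl19). With the second-named share as a covariate 0 passed in KR and 0 in KN1, and Rps27a in LR was at 0.02. That covariate extends beyond the shares of the KR and KN1 controls, and omission left 1 merged control each, assumed to vary like the other groups. With 1 mouse left out at a time, KR counts ran from 0 to 18 and KR medians from -0.48 to -0.16, KN1 counts from 0 to 30 and KN1 medians from -0.59 to -0.34. KR had 8 calls without KN1 control 1, 9 without LR mouse 3, 12 without KR mouse 4 or KN1 control 7, and 18 without LR control 5. It had 1 call without LR control 3, LR mouse 1 or 2, or any KN1 mouse. Counts between KR and LR controls ran from 0 to 6 (6 without LR control 5), and those between KR and KN1 controls from 6 to 65. A replicate block in the LR cohort gave 0 calls and a median of -0.16. Its numbers do not pair the mice: the correlations of the deviations of same-numbered mice over all genes were 0.07 and -0.08. Single members were followed for a chosen part of those named, counting each pair of gene and setting once. Direction and side of the threshold held in 194 of 240 pairs in KR, 145 of 150 in LR and 174 of 240 in KN1. The cause of these shifts was not tested. Depth limits Rpl24, with 86 counts in all libraries.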
